A study of Mus musculus with 11 samples.

Results

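Adaptor protein complexes are 4-subunit coats that select membrane cargo, and ChIP-seq placed RFX3 near the ends of 9 of the 24 mouse genes that encode the subunits of complexes 1 to 4. The 9 genes were Ap1s1 and Ap1m1 of complex 1, Ap2s1 and Ap2a1 of complex 2, Ap3d1, Ap3m1 and Ap3m2 of complex 3, and Ap4b1 and Ap4m1 of complex 4. They were chosen by the RFX3 list and are exactly the subunit genes with an RFX3 summit within 1 kb of an annotated gene end, and all peaks of RFX1, RFX2 and RFX3 with a summit inside or within 10 kb of the RefSeq gene were then taken. The other 15 subunit genes of the same complexes were used for comparison. Since the peaks chose the genes, their numbers and levels below are a description, with no test.

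The cells were ependymal cells, the multiciliated lining of the brain ventricles, grown from the lateral walls of wild-type OF1 mouse brain and differentiated ex vivo; the labels call the tissue embryonic and give the age as P0. Each of RFX1, RFX2 and RFX3 was immunoprecipitated with its own antibody in 2 replicates, with different lots of the RFX2 antibody, and 5 input samples were taken (2 for RFX1, 2 for RFX2 and 1 for RFX3). The authors merged the replicates into lists of 7440, 1250 and 9318 reproducible peaks for RFX1, RFX2 and RFX3, so no value here carries a replicate error. Read depth is unknown, and a gene without a peak was not called rather than shown to be free of the factor. The labelled cell type could not be checked against marker expression, since only DNA binding was measured.

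As background, each adaptor complex joins 2 large chains, 1 medium (mu) chain and 1 small (sigma) chain. Complex 1 works with clathrin between the trans-Golgi network and endosomes, and complex 2 with clathrin at the plasma membrane during endocytosis. Complex 3 sorts cargo to lysosomes and related organelles, and complex 4 acts at the trans-Golgi network without clathrin, so not every gene of the set is a clathrin adaptor gene in the strict sense. RFX proteins are winged-helix factors that bind the X-box, an imperfect inverted repeat.

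The DNA at the summits is shown first, for the sites where a promoter window held an X-box-like stretch close to them. Only windows around RefSeq starts were searched. The summits of Ap2s1, Ap4m1 and Ap3m1 lay outside these windows, and Ap1m1 and Ap3m2 had no window. The DNA at those summits was thus not read, and the absence of a site from the list does not show that it lacks such a stretch. Capitals mark stretches that share at least 10 of 14 letters with the palindromic consensus GTTGCCATGGCAAC, except in the Ap4b1 site, where they mark a match to an inverted pair (GTNNCC, any 2 bases, then its reverse complement GGNNAC). Sequences are from RefSeq promoters of GRCm38.p6 and read 5′ to 3′ on the strand of the named gene, except the Ap4b1 site, which is on the minus strand, that of its neighbour Dclre1b. For Ap1s1 and Ap3d1 the 250 bases before the start are given, and for the rest a site of 30 bases, because the surrounding DNA lies inside another annotated gene or an annotated part of the same gene.
Ap1s1, chr5:137046109-137046358, minus strand: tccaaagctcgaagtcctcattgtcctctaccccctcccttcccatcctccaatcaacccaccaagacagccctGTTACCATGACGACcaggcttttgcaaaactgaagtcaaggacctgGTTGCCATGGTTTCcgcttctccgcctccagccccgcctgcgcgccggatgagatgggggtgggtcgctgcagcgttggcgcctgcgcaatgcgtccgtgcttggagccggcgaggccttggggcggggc
Ap3d1, chr10:80742276-80742525, minus strand: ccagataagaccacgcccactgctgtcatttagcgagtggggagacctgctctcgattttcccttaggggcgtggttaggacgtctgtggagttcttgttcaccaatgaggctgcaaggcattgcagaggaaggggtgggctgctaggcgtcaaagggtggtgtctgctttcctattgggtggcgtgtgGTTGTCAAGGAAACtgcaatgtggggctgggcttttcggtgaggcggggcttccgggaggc
Ap2a1, chr7:44929664-44929693, minus strand: actcccccGTCTCTAGGGCAACgccccctg
Ap2b1, chr11:83302589-83302618, plus strand: acctttccGTTGCTGAGGCGACagacacga
Ap4b1, chr3:103809599-103809628, minus strand: tagtcccaGTGGCCGAGGACACcccagaca

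All 9 genes thus had an RFX3 summit within 10 kb, a count fixed by the choice; 25.3% of 21887 protein-coding genes had one. RFX1 had a summit there at 8 of the 9, against 24.9% of all genes, and RFX2 at 2 of the 9, against 5.93%. RFX1 and RFX2 peaks were taken by the same 10 kb rule at genes chosen for RFX3, and RFX1 and RFX3 share most sites in the whole lists, so these counts carry no independent weight. Within 1 kb of an annotated end of the gene, RFX3 lay at 9, again fixed by the choice (background 7.94%), RFX1 at 8 (background 9.05%) and RFX2 at 2 (background 2.08%). RFX1 and RFX3 together lay at 8 (background 6.89%). Ap2s1 was the gene without RFX1, and Ap1s1 and Ap3m2 were the genes with all 3 factors at an end (background 2.06%). The members were not long genes, with a median length of 17374 bp against 17169 bp for all protein-coding genes, whereas the other 15 subunit genes had a median of 58453 bp.

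**Figure D1:**
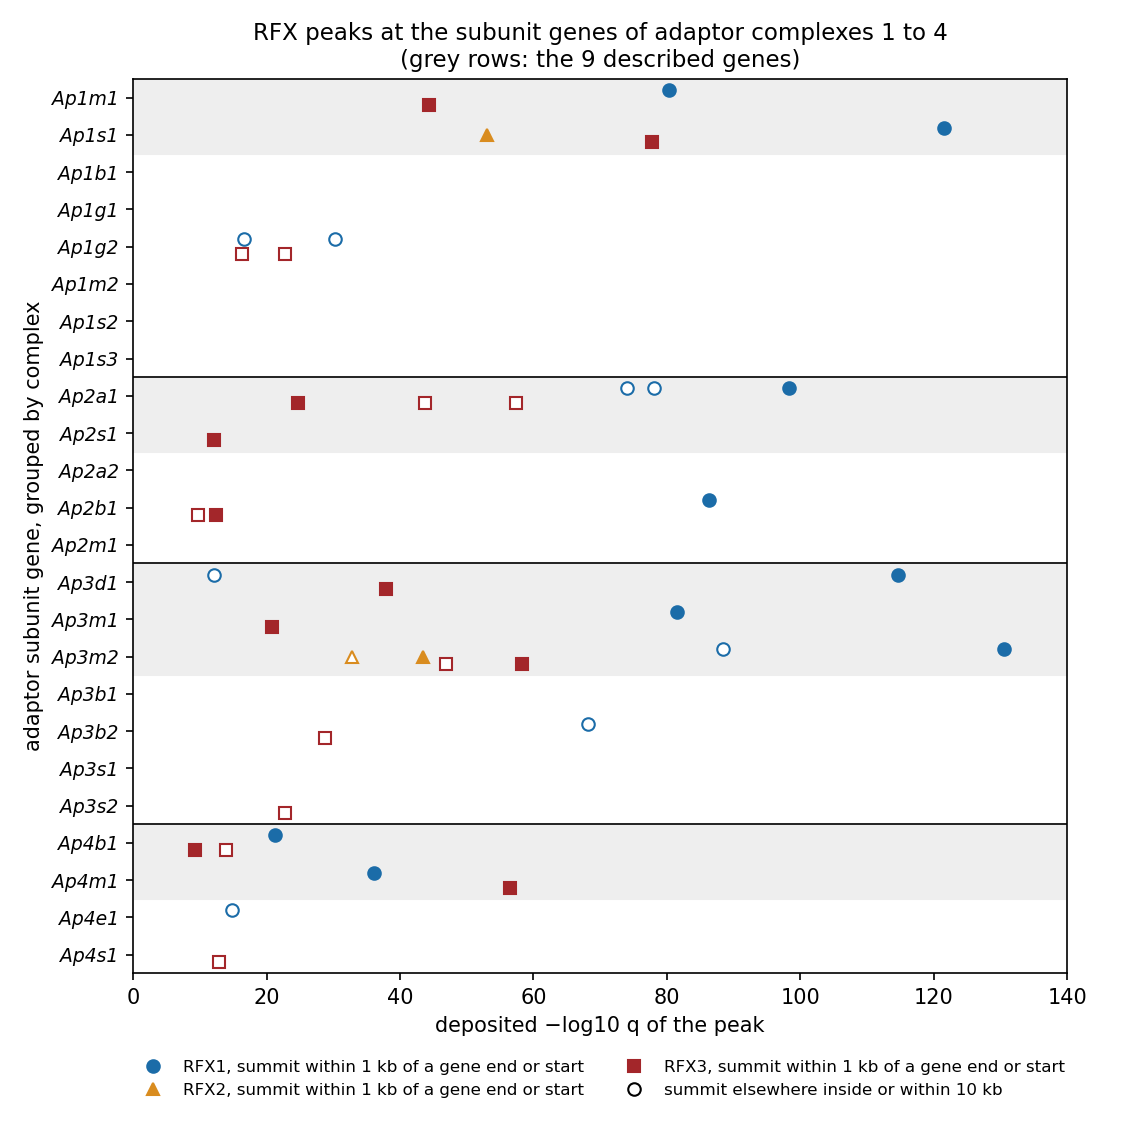
Deposited −log10 q of every RFX peak inside or within 10 kb of the 24 adaptor subunit genes; each symbol is 1 peak, filled where its summit lies within 1 kb of an annotated end or RefSeq start, and grey rows are the 9 genes. In the rows without grey, filled symbols appear at Ap2b1 alone, and RFX2 symbols appear at Ap1s1 and Ap3m2 alone.

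In complex 1, Ap1s1 encodes a small sigma chain and had the best RFX3 peak of the set. The summits lay 137 bp (RFX1), 147 bp (RFX2) and 159 bp (RFX3) before its start on chromosome 5 (gene 137034993–137046108, minus strand). RFX1 reached a −log10 q of 122, RFX2 reached 53.1 and RFX3 reached 77.8, with deposited fold enrichments of 12.4, 11.9 and 6.57. All 3 summits fell between the capital stretches shown above, whose first bases lie 176 and 130 bp before the start and which each share 11 of 14 letters with the consensus. A pair of such stretches was found in 0.125% of 32851 RefSeq promoter windows of 300 bases. The nearest end of another protein-coding gene, that of the neuropeptide precursor gene Vgf, was 12894 bp from the RFX1 summit.

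Ap1m1, which encodes the ubiquitous mu chain of complex 1, had RFX1 and RFX3 peaks just inside one end on chromosome 8 (gene 72240013–72257386). Their summits lay 297 and 278 bp from that end, with −log10 q of 80.3 and 44.4 and folds of 9.60 and 3.83. No RFX2 peak was called at this gene. The promoters of Ap1m1 and Ap3m2 were not analysed here.

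In complex 2, Ap2a1 encodes an alpha chain that binds membrane lipid and cargo motifs. At its start on chromosome 7 (gene 44900373–44929490, minus strand) the RFX1 and RFX3 summits lay 190 and 188 bp upstream. The −log10 q was 98.4 and 24.7, and the fold 10.03 and 3.28, so the 2 lists placed their summits 2 bp apart with different deposited values. The 14-letter stretch shown above shares 10 letters with the consensus and lay under both summits, its centre 1.5 bp from the RFX1 summit. These summits are also inside Tsks, 208 and 206 bp from its end.

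A further pair of shared sites within 10 kb of Ap2a1 lay at neighbouring genes. One was 392 bp (RFX1) and 329 bp (RFX3) from a start of Fuz, a planar cell polarity effector needed for cilia, with −log10 q of 78.0 and 57.4. The other was 460 and 401 bp from a start of Med25, a Mediator subunit gene, with −log10 q of 74.0 and 43.8. For RFX3, both had a higher −log10 q than the peak at the start of Ap2a1 itself. Their summits lay between 4623 and 7548 bp outside Ap2a1. At the Fuz site both peaks held the letters GTTGCC on each strand. The nearer copy was centred 149.5 bp from the RFX1 summit and 86.5 bp from the RFX3 summit.

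Ap2s1, the sigma chain gene of complex 2, had a weak RFX3 peak and no called RFX1 or RFX2 peak. Its summit lay 97 bp after the start on chromosome 7 (gene 16738444–16749290), a −log10 q of 12.1 and the lowest fold of the set, 2.58. That peak ranked 7294 of 9318.

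In complex 3, Ap3m2 encodes a mu chain known mainly from neurons and held the best RFX1 peak of the set. A pair of separate sites, 2687 bp apart by RFX1 summits, each had all 3 factors on chromosome 8 (gene 22787354–22807292). The outer site lay 870 bp (RFX1), 876 bp (RFX2) and 872 bp (RFX3) outside the gene, with −log10 q of 131, 43.4 and 58.2. The inner site lay 1817 bp (RFX1), 1817 bp (RFX2) and 1811 bp (RFX3) inside the same end, with −log10 q of 88.4, 32.8 and 46.9. Folds ran from 9.30 to 12.97 for RFX1 and RFX2 and were 4.09 and 4.55 for RFX3. Summits of the 3 factors agreed to within 6 bp at both sites.

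Ap3d1, the delta chain gene whose loss gives the mocha mouse, had an RFX1 and an RFX3 peak at its start. The summits lay 68 bp (RFX1) and 40 bp (RFX3) upstream on chromosome 10 (gene 80706956–80742303, minus strand), with −log10 q of 115 and 38.0. The RFX1 fold of 13.8 was the highest of the set, and the RFX3 fold there was 4.13. A stretch with 11 of 14 consensus letters, shown above, began 61 bp before the start, with its centre 13.5 and 14.5 bp from the RFX1 and RFX3 summits. A second RFX1 peak, with a −log10 q of 12.1, lay 4956 bp outside the other end and 15 bp from an end of Izumo4, and ranked 7410 of 7440.

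Ap3m1, the mu chain gene expressed in most tissues, differed in position: its peaks lay past the 3′ end. On chromosome 14 (gene 21033106–21052553, minus strand) the RFX1 and RFX3 summits were 736 and 713 bp beyond that end and inside Vcl, the gene of the focal adhesion protein vinculin. They lay 20072 and 20049 bp from the start of Ap3m1. The −log10 q was 81.5 and 20.8, and the folds were 13.5 and 10.1, the latter the highest RFX3 fold of the set.

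In complex 4, Ap4m1, its mu chain gene, was the only one of the set with a higher −log10 q for RFX3 than for RFX1 at a shared site. Both summits lay at the same base, 411 bp after the start on chromosome 5 (gene 138172021–138180429, plus strand), and 321 bp from an annotated end of Mcm7, a DNA replication helicase gene. The −log10 q was 36.1 for RFX1 and 56.5 for RFX3, and the folds were 6.71 and 6.81.

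Ap4b1, the beta chain gene of complex 4, shares its upstream region with Dclre1b, a DNA repair nuclease gene on the other strand. RFX1 and RFX3 peaks overlapped there, but the summits were 257 bp apart, the widest separation of the set. The RFX1 summit lay 108 bp after the start of Ap4b1 on chromosome 3 (gene 103809511–103822025, plus strand), its −log10 q being 21.2 and its fold 5.72. The RFX3 summit lay 149 bp before the start and 19 bp from the start of Dclre1b, its −log10 q of 9.33 (fold 2.90) being close to the lowest value in its list (8.87). The inverted pair shown above was centred 11.5 bp from the RFX1 summit and 245.5 bp from the RFX3 summit. It shares 9 of 14 letters with the consensus, a level reached by 48.0% of all windows, while 1.88% hold such a pair. Another RFX3 peak, with a −log10 q of 13.8, lay 7395 bp upstream and inside Dclre1b.

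**Figure D2:**
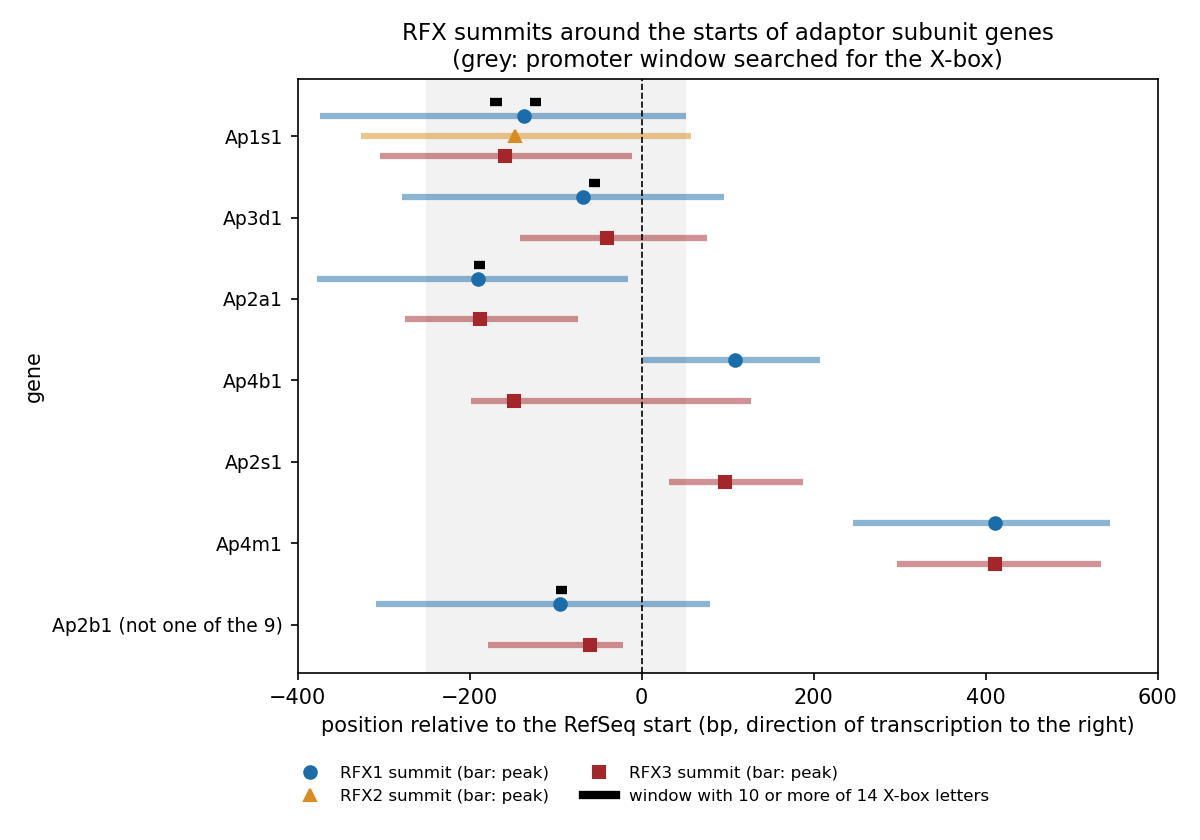
Peaks (bars) and summits (symbols) around the RefSeq starts of the 6 members with a called peak within 1 kb of a known start, and of Ap2b1; the x axis is distance from the start in bp, and black blocks are stretches with at least 10 of 14 consensus letters inside the grey window. Summits at Ap1s1, Ap3d1, Ap2a1 and Ap2b1 lie before the start and near such a stretch, while those at Ap2s1 and Ap4m1 lie after the start and outside the window.

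Across the set there were 12 RFX1, 3 RFX2 and 13 RFX3 peaks. Of the 13 RFX3 peaks, 11 overlapped an RFX1 peak by at least 1 bp, against 59.3% of all RFX3 peaks and 84.6% of RFX3 peaks at any annotated gene end; the exceptions were the peak of Ap2s1 and the upstream peak of Ap4b1. The median distance between summits of the 11 pairs was 22 bp, against 16 bp over all 5531 RFX1 and RFX3 overlaps. In 10 of the 11 pairs the −log10 q was higher for RFX1, and in 10 the fold was higher for RFX1. Over all overlaps the same held in 65.2% and 54.4%, and over those whose RFX1 summit lay at a gene end in 79.3% and 87.0%. The inner Ap3m2 site and the Fuz site, among the 11 pairs, were not within 1 kb of an annotated gene end. These are values of separate peak calls of unknown depth, not a measure of how much of each factor was bound.

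The 2 readouts of peak strength stood apart for RFX3. RFX3 peaks at an end of the 9 genes had a median −log10 q of 38.0, above the 19.9 of the whole list, but a median fold of 4.09, below the 7.45 of the whole list. RFX3 peaks at any gene end had the same pattern, with medians of 31.6 and 4.91. For RFX1 the 8 peaks at an end had medians of 89.9 and 11.2, against 48.0 and 8.21 at any gene end.

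**Figure D3:**
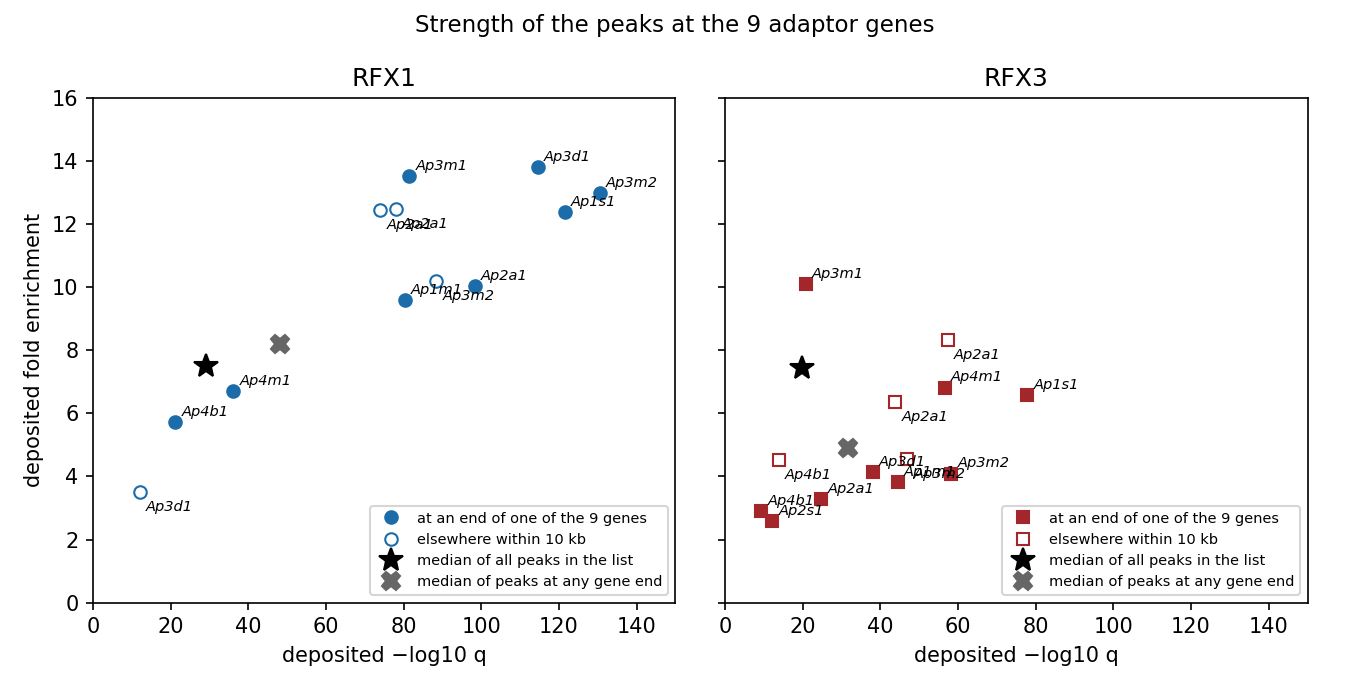
Deposited −log10 q (x) and fold enrichment (y) of each RFX1 (left) and RFX3 (right) peak of the 9 genes, filled at an end of the gene and open elsewhere within 10 kb. The star is the median of all peaks in the list and the cross the median of peaks at any gene end. Apart from Ap4m1 and Ap4b1, the RFX1 peaks at an end have folds from 9.60 to 13.8, while RFX3 peaks at an end have folds from 2.58 to 6.81 apart from Ap3m1.

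X-box letters were searched in the RefSeq windows from 250 bases before to 50 after each start, which 7 of the 9 genes had. The half-site GTTGCC, on either strand, occurred in 2 of the 7 (Ap1s1 and Ap2a1), against 12.5% of all windows, and in 2 of 14 other subunits (Ap2b1 and Ap1s2). It occurred in 46.3% of windows with an RFX1 summit inside them and in 47.8% of those with an RFX3 summit. At least 10 of 14 consensus letters, a measure added after the sequences were seen and one that can overlap the half-site, occurred in 3 of the 7 (Ap1s1, Ap3d1 and Ap2a1) and in 3 of the 14 other subunits (Ap2b1, Ap1g2 and Ap3s2). All windows reached 10 letters in 12.2%, and the 1281 windows with an RFX1 summit inside them reached it in 62.8%. Ap1s1, Ap3d1 and Ap2a1 were the members whose window held an RFX1 summit. The window of Ap4b1, with an RFX3 summit alone, reached 8 letters, as did 95.0% of all windows. The inverted pair of GTNNCC described above, which reads the same on both strands, was in no member's own window, in 1 of the 14 others (Ap3s2, which had no peak at its start) and in 1.88% of all.

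Among the other 15 subunit genes, RFX3 had a summit within 10 kb of 5 (33.3%, all genes 25.3%), RFX1 of 4 (26.7%, all genes 24.9%) and RFX2 of none (all genes 5.93%). The choice left none of the 15 with an RFX3 summit within 1 kb of an annotated gene end, and no RFX1 or RFX2 summit lay there either. At a start known from the promoter windows, Ap2b1, the beta chain gene of complex 2, resembled the 9 genes: its RFX1 and RFX3 summits lay 95 and 60 bp before a start on chromosome 11, with −log10 q of 86.3 and 12.4 and folds of 11.6 and 2.83. Its annotated gene begins farther upstream, which put these summits 3883 and 3918 bp from the annotated end and the gene outside the set. The stretch shown above, with 10 of 14 letters, was centred 1.5 bp from the RFX1 summit. RFX3 also had a peak inside Ap2b1, 9788 bp from the nearest annotated end. Its −log10 q of 9.69 was lower than at the start, and its fold of 7.06 was higher.

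The remaining peaks at these 15 genes lay away from starts. Ap1g2, a gamma chain gene of complex 1, had RFX1 and RFX3 summits 2178 and 2161 bp upstream (−log10 q of 30.3 and 22.8), inside Jph4. A second pair, inside Zfhx2, lay 9388 and 9426 bp from Ap1g2 (−log10 q of 16.6 and 16.3). Ap3b2, the neuronal beta chain gene of complex 3, had RFX1 and RFX3 summits 7320 and 7308 bp outside, inside Cpeb1 (68.2 and 28.8). Ap3s2 had RFX3 alone (22.7), Ap4s1 had an RFX3 peak alone inside the gene (12.9) and Ap4e1 had RFX1 alone inside the gene (14.8). No peak was called within 10 kb of Ap1b1, Ap1g1, Ap1m2, Ap1s2, Ap1s3, Ap2a2, Ap2m1, Ap3b1 or Ap3s1.

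By chain type, RFX3 was within 1 kb of an annotated end at 4 of 6 medium chain genes, 3 of 11 large chain genes and 2 of 7 small chain genes. By complex the counts were 2 of 8, 2 of 5, 3 of 7 and 2 of 4 for complexes 1 to 4. Over all protein-coding genes the share was 7.94%. Because RFX3 summits at ends chose the genes, these counts restate that choice. A preference for a chain type or a complex was not tested. No complex had RFX3 at the ends of all its subunit genes.

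The 10 kb limit left strong sites just outside. A site of all 3 factors inside Plat lay 10114 bp (RFX1), 10089 bp (RFX2) and 10126 bp (RFX3) from Ap3m2, with −log10 q of 161, 70.9 and 104. Inside Vcl, 12477 bp from Ap3m1, an RFX3 peak reached a −log10 q of 67.6 at a fold of 23.1. RFX1 was called there too, its summit 12485 bp from Ap3m1, and its peak had lower values (32.5 for −log10 q, 8.54 for fold). The farthest summits kept for the 9 genes were those at Med25, at 7489 and 7548 bp from Ap2a1.

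Related coat genes were read from lists of neighbouring pathways. In complex 5 and its partners, a later-found adaptor-like coat, 0 of 6 genes had a peak of any factor within 10 kb. Over all genes the shares were 25.3% for RFX3, 24.9% for RFX1 and 5.93% for RFX2, and a difference was not tested. Of 9 genes of the COPI coat, which is related to the adaptor complexes, RFX3 was within 10 kb of 6 (all genes 25.3%), RFX1 of 5 (24.9%) and RFX2 of 2 (5.93%). Their median length was 25777 bp, against 17169 bp for all genes. Within 1 kb of an annotated end, RFX3 lay at 2 of the 9 (all genes 7.94%), RFX1 at 2 (9.05%) and RFX2 at 0 (2.08%). The genes with RFX2 were Cope and Copz2. Its summits lay 4335 bp outside Cope, inside Gdf1 and Cers1, and 1052 bp outside Copz2. Copz1 had RFX1 and RFX3 summits 240 and 237 bp before its start (−log10 q of 98.3 and 61.4), and Copb2 had them 113 and 94 bp before it (52.0 and 14.1). The Copb2 window held GTTACCTAGGAAAC, a match to the inverted pair, with its centre 6.5 and 12.5 bp from these summits.

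Of 35 genes for clathrin and its accessory proteins, RFX3 was within 10 kb of 14 (40.0%, all genes 25.3%), RFX1 of 15 (42.9%, all genes 24.9%) and RFX2 of 2 (5.71%, all genes 5.93%). The median length of these genes was 59123 bp, against 17169 bp for all genes, and 4 of the 35 had RFX3 within 1 kb of an annotated end (all genes 7.94%). Aagab, whose product helps to assemble adaptor complexes 1 and 2, had RFX1 and RFX3 summits 165 and 120 bp before its start (−log10 q of 45.1 and 66.1), with GTCACCATAGCAAC, sharing 11 of 14 letters, centred 19.5 and 25.5 bp from them. These summits also lie inside Iqch, 12 and 33 bp from a start of that gene. Itsn1, an endocytic scaffold gene, had all 3 factors 652, 631 and 640 bp before its start (131, 48.1 and 64.1 for RFX1, RFX2 and RFX3), at summits that lie inside Cryzl1 and closer to a start of that gene (83, 62 and 71 bp). Gga1, a monomeric clathrin adaptor gene, had RFX1 and RFX3 788 and 773 bp before its start (16.1 and 22.8). Inside Fcho1, RFX1 and RFX3 summits lay 5345 and 5337 bp after the start (26.6 and 119), and that RFX3 peak ranked 140 of 9318. Synrg had all 3 factors near its annotated 3′ end (61.9, 18.6 and 63.9 for RFX1, RFX2 and RFX3). None of the 3 clathrin chain genes had a peak at a start; Clta had RFX1 and RFX3 inside the gene (52.1 and 44.5), and Cltb and Cltc had none.

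The genes most like Ap1s1 were sought among the 450 other genes with all 3 factors within 1 kb of an end, by the distance between percentile ranks of −log10 q in the 3 lists. Cdk2ap2 was closest, at 1.502 percentile points, followed by Fam214a at 1.94 and Cep112, a centrosomal protein gene, at 2.84. Ap1s1 itself stood at the percentiles 95.3 (RFX1), 82.2 (RFX2) and 94.1 (RFX3).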

How the data were processed

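The authors deposited 1 list of reproducible peaks per RFX, already merged over the 2 ChIP replicates. MACS2 2.0.10.20130520, Bowtie 0.12.7 and the build GRCm38 are listed in the submitters' processing notes beside CASAVA 1.8.2, with no role stated for any; the rule for a reproducible peak and the control used were not given in these sources. The values used were the deposited fold enrichment (a ratio to background), the deposited −log10 q and the summit offset; the deposited score and 1 further value column per list, the −log10 p, were not used. These are the authors' own values per peak.

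Genes came from RefSeq GRCm38.p6 (21887 protein-coding genes on assembled chromosomes), and starts, strands and sequences from its 32851 promoter windows. All 9 members matched by symbol, and 7 had a window. A gene was assigned each summit inside or within 10 kb of it. Assignment and motif search were tested on planted examples (Python 3.11.15, pandas 2.3.3). No statistical test was run. Members, lists and motifs were chosen with earlier results of these data known. All members, the other subunits, list genes with a peak and the nearest neighbours could be named; for Ap1s1, the 3 most similar genes were named.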

Additional observations from a re-analysis of the deposited data

How the results depend on the processing

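Other windows, thresholds and overlap rules were tried for 8 counts, 56 alternatives in all, and 43 stayed within 1.5 times of the reported count. Not all of them could move: the choice fixed the RFX3 count at the 9 genes for every window of 1 kb or wider. The RFX2 count at the other 15 genes was 0 in every setting. The tally is thus no measure of stability. The RFX1 and RFX2 counts at the 9 genes stayed within 1.5 times of the reported count under all 8 of their alternatives. Several of these could move little or not at all. The RFX2 list holds 1250 peaks, so its best 1250 were the whole list. RFX1 was already at 8 of the 9 genes within 1 kb of an end, so wider windows could give only 8 or 9. With the best 1250 peaks per list, RFX3 was near 4 of the 9 genes and 3 of its peaks there overlapped RFX1; among the other 15 genes RFX1 was near 1 and RFX3 near 0. For those 15 genes, the counts of RFX1 and RFX3 were 2 and 2 inside or within 1 kb and 0 and 0 at annotated ends; RFX3 was near 3 within 5 kb, 3 with the better-scoring 50% of peaks and 2 when the gene had to own the nearest start. The half-site count of 2 became 0 for the inverted pair and 4 for GTTNCC, which 45.3% of all windows hold. No paired analysis was possible because the lists merge the replicates, so no replicate could be left out either.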
